A study of Rattus norvegicus with 91 samples.

Results

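The 10 genes described here make, lengthen and desaturate fatty acids in the liver or switch that programme on. They were Srebf1, Acly, Me1, Acaca, Fasn, Thrsp, Elovl6, Fads1, Fads2 and Gpam. A gene was included through the probe sets annotated with its symbol alone, and these 10 stood among 10620 genes named in this way on the arrays of the study. The smaller array of the study carried 6 of them with 17 probe sets, and the larger one carried all 10 with 16 probe sets. Each gene is given by its brightest probe set, the one with the highest mean signal over the arrays of a course.

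De novo lipogenesis turns citrate that leaves the mitochondria into palmitate. Srebf1 encodes SREBP-1, the transcription factor that drives the programme in liver when insulin is high. Acly splits citrate into acetyl-CoA, Me1 (malic enzyme) supplies NADPH, Acaca makes malonyl-CoA in the committed step, and Fasn builds the saturated chain. Thrsp (Spot 14) is a small protein that follows the lipogenic state of liver and fat. Elovl6 lengthens palmitate to stearate, Fads1 and Fads2 are the delta-5 and delta-6 desaturases that make highly unsaturated fatty acids, and Gpam attaches the first acyl chain to glycerol 3-phosphate on the way to triglyceride. Glucocorticoids such as methylprednisolone act through a nuclear receptor and alter both insulin action and lipid handling in liver.

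Liver RNA came from Wistar rats labelled with a 50 mg/kg dose of methylprednisolone, and every array holds total RNA of whole liver. The control arrays carry this dose label too. Arrays titled Ctr were taken as controls and all others as treated. The short course had 47 arrays, with 4 control arrays labelled time 0 and 16 times from 0.25 to 72 h at 2 or 3 arrays each. The long course, on the other array design, had 44 arrays, with 4 control arrays and 10 times from 6 to 168 h at 4 arrays each. The labels give no route, dosing schedule, vehicle, adrenal status, feeding state or time of day, so the controls cannot be matched to the treated arrays on these. They do not say whether the replicates of a group are separate animals, and p-values measure only the spread between these arrays. In bulk liver, fewer cells of a type and less RNA per cell cannot be told apart.

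Signals are on a linear intensity scale that differs between the courses, so levels were compared within a course. Genes of hepatocytes were bright on the arrays of both courses, with a summed signal of 9 markers from 66977 to 194570 in the short and from 50774 to 136206 in the long course. One short-course array, 6 h replicate 3, had been deposited on another scale and was brought to the common one. In the short course 8 arrays, and in the long course 1, had a mean correlation with the other arrays under 0.9. Those of the short course included control 1 (0.899) and 2 h replicate 1 (0.887), 1 of the 2 arrays at 2 h. Leaving out the low-correlation arrays therefore also leaves out control 1, and the 2 effects were not separated. On the other design 15 arrays carried brighter bacterial spike-in controls than the other 29, among them all 11 arrays labelled replicate 4. They included 1 of 4 controls, 4 of 16 arrays at 6-18 h and 6 of 12 at 72-168 h. This split was drawn from the spike-in signals and was not taken from a label.

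The promoters of Srebf1, Thrsp and Fads2 are shown because each has a call against the controls (4-8 h of the short course for Srebf1, 72-168 h of the long course for the others) that stayed past the threshold whichever array was left out, and that of Fads1 because it neighbours Fads2 on chromosome 1. RefSeq lists 2 genes, 0 of them protein-coding, with start coordinates between those of Fads1 and Fads2. Whether they overlap either gene was not checked. The RefSeq promoter table for GRCr8, with 250 bases before to 50 after each start, held 7 of the 10 genes and 8 promoters, since Srebf1 has 2 starts. It lacked Fasn, Acaca and Elovl6. The 72-168 h calls of Acaca and Fasn also stayed past the threshold whichever array was left out, but their promoters could be neither shown nor searched. The sequences run 5′ to 3′ on the strand of the gene, and capitals mark CCAAT or its reverse complement ATTGG.
Srebf1 first start, chr10:45529115-45529414, minus strand: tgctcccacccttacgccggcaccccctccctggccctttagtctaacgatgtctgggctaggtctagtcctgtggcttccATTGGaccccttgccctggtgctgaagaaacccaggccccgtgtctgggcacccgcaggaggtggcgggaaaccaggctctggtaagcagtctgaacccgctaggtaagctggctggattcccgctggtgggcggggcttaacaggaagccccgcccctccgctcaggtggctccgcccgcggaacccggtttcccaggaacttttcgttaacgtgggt
Srebf1 second start, chr10:45518961-45519260, minus strand: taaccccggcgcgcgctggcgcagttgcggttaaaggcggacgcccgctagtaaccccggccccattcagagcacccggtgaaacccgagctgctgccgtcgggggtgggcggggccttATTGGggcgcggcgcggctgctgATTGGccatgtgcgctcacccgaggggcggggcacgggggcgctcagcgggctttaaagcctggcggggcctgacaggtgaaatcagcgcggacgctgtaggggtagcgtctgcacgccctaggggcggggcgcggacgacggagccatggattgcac
Thrsp, chr1:161138915-161139214, minus strand: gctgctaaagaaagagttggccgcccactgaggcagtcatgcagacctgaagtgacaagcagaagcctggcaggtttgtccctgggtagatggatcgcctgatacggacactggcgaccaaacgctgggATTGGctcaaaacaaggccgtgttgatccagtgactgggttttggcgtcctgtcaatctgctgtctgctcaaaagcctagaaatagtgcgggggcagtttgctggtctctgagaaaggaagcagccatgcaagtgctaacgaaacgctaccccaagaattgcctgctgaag
Fads1, chr1:216252442-216252741, plus strand: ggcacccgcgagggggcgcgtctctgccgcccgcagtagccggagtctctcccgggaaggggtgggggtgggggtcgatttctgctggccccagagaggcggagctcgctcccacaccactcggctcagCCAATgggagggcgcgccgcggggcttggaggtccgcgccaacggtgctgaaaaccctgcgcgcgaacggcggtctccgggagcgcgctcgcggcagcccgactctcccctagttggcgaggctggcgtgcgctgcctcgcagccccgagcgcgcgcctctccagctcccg
Fads2, chr1:216171984-216172283, minus strand: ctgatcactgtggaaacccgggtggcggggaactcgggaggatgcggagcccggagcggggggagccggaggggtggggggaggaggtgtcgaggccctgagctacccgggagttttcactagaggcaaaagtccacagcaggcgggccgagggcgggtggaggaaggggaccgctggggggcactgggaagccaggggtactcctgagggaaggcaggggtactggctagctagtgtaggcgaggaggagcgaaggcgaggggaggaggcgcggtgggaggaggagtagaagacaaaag
CCAAT, read on both strands, was in 6 of the 8 promoters and in 37.5% of all 33469 promoters of the table. GGGCGG, the core bound by Sp1, was in 7 of the 8 and in 33.1% of all. No match of CCAAT overlapped one of GGGCGG, while AGAACA is contained in the full glucocorticoid response element. The sterol regulatory element core TCACNCCAC (1.12% of all promoters), the E-box CACGTG (6.42%), the full palindromic glucocorticoid response element (0.0149%) and the single glucocorticoid receptor site AGAACA (20.7%) were not among the letters of these 8 windows. Which of the 2 Srebf1 starts a probe set reads was not determined.

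The control arrays differed widely among themselves in these genes. Over the 4 short-course controls the SD of log2(signal + 32) was 0.87 for Srebf1, 1.10 for Acly, 1.14 for Fasn and 1.16 for Me1, against a median of 0.32 over all genes. These SDs lay at the 95.8th to 98.5th percentile of all genes, while Acaca (0.28) and Gpam (0.41) lay at the 39.6th and 68.1st. Among the long-course controls the SD was 1.30 for Srebf1, 1.43 for Fasn, 1.25 for Acly and 1.53 for Thrsp, against a median of 0.27. The spread ran the same way through most members. Control 2 of the short course was the lowest for 5 of the 6 genes and control 1 the highest for 5. Control 2 of the long course was the lowest for 7 of the 10 genes and control 4 the highest for 8, and control 4 is the only control among the arrays with bright spike-ins.

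**Figure D1:**
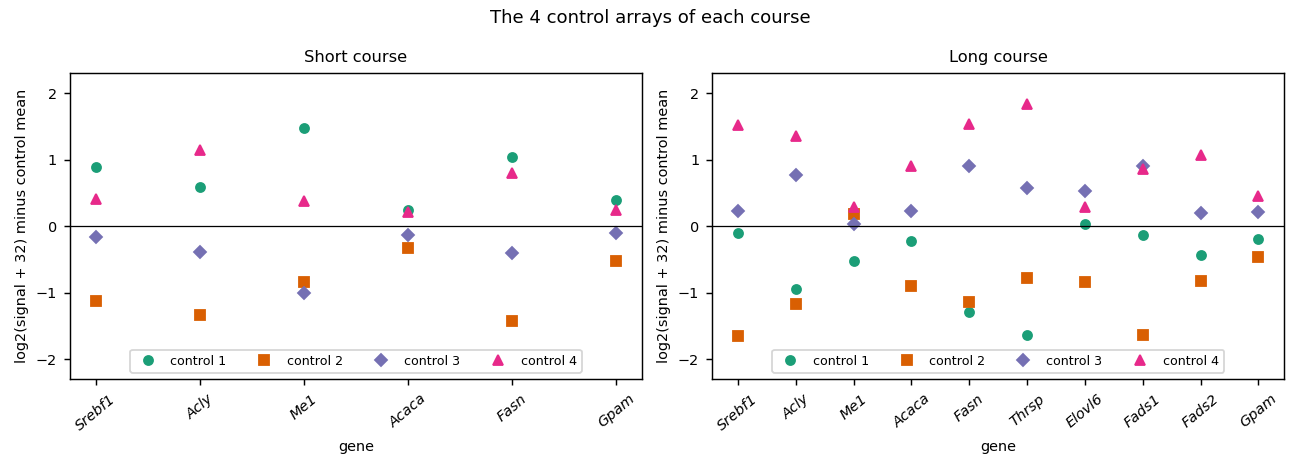
The 4 control arrays of the short course (left) and the long course (right). The vertical axis gives log2(signal + 32) minus the mean of the 4 controls for each gene on the horizontal axis, 1 symbol per array. Control 2 lies lowest for 5 of 6 genes on the left and 7 of 10 on the right.

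In the short course, Srebf1 and Gpam were lower at 4-8 h, to 0.378 and 0.351 of the control level, Me1 was lower, Acaca was higher, and Srebf1, Gpam, Acly, Me1 and Fasn were all higher at 30-72 h than at 4-8 h. Changes are differences in log2(signal + 32), which understate the change of dim genes, and an adjusted p under 0.05 in limma's moderated test over all probe sets of a course counts as past the threshold. A moderated F test over all times was passed by 4 of the 6 genes (Srebf1, Acly, Acaca and Gpam) and by 34% of all 3582 genes. At 4-8 h 4 of the 6 genes passed, 3 lower and 1 higher, where 27.6% of all genes passed, 10.8% lower and 16.7% higher. Over all probe sets 1000 of the 1642 past the threshold at 4-8 h were higher, against 794 of 1533 after quantile normalization and 653 of 1535 after median centring. The 6 genes had a median log2 change of -0.81 at 4-8 h and that of all genes 0.11. At 0.25-0.75 h 0 of the 6 passed (3.49% of all genes), at 1-2 h 1 of 6 (12.6%), at 12-18 h 0 (1.01%) and at 30-72 h 0 (0.112%).

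Srebf1 had control signals of 2024, 473, 953 and 1430. At 2 h the 2 arrays gave 173 and 325, at 4 h the 3 arrays gave 354, 336 and 176, and the 17 arrays of 4-8 h ran from 176 over a median of 388 to 728. All arrays of 2 and 4 h, and 13 of the 17 at 4-8 h, lay below the lowest control. The log2 change was -2.03 at 2 h (SE 0.45, limma adjusted p = 0.003584), -1.84 at 4 h (SE 0.40, limma adjusted p = 0.001822) and -1.40 over 4-8 h (SE 0.29, limma adjusted p = 5.46e-04). Leaving out any 1 array left the calls at 4 h and 4-8 h past the threshold, but the 2 h call was lost without 2 h replicate 1 (log2 change -1.63, adjusted p = 0.1275), and both single-time calls without the arrays of low correlation (-1.33 and -1.25, adjusted p 0.1862 and 0.06667). The 1-2 h window stood at -1.29 (SE 0.35, limma adjusted p = 0.01534) and was lost without control 1, control 4 or 2 h replicate 1 (adjusted p 0.06151 to 0.09694).

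Srebf1 rose again by 30-72 h. The arrays of 30 h gave 1883 and 2990, those of 48 h 1290, 1422 and 1546, and those of 72 h 2333 and 1667. All 7 late arrays were above every array of 4-8 h, and 2 were above the highest control. Against the controls the late change was 0.79 (SE 0.33, limma adjusted p = 0.7724) and did not pass, while against 4-8 h it was 2.19 (SE 0.24, limma adjusted p = 1.70e-08).

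Acly, which supplies acetyl-CoA, had control signals of 9471, 2472, 4814 and 14072. It gave 1808 and 2188 at 2 h and 2098, 2980 and 1913 at 4 h, so that both arrays of 2 h and 2 of 3 at 4 h lay under all controls. The log2 change was -1.65 at 2 h (SE 0.48, limma adjusted p = 0.02097) and -1.45 at 4 h (SE 0.43, limma adjusted p = 0.01638). Each of these calls was lost without control 1, without control 4 and without either of 2 arrays of its own time (2 h replicates 1 and 2; 4 h replicates 1 and 3), with adjusted p from 0.05294 to 0.2023. Without the low-correlation arrays the changes were -1.32 and -1.13 (adjusted p 0.2339 and 0.1355). Over 4-8 h the change of -0.72 (SE 0.31, limma adjusted p = 0.08131) did not pass. The 3 Acly probe sets ran from -1.07 to -0.18 in that window, and none passed. At 30-72 h the 7 arrays ran from 4594 over 8392 to 12458, and 4 of them were above every array of 4-8 h. The late window was higher than 4-8 h by 1.10 (SE 0.25, limma adjusted p = 8.37e-04).

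Me1, the source of cytosolic NADPH beside the pentose phosphate pathway, had control signals of 2319, 442, 389 and 1064, and from 243 over 419 to 869 at 4-8 h. Its change of -0.89 at 4-8 h (SE 0.30, limma adjusted p = 0.02364) had 6 of 17 arrays under all controls. It was lost without control 1 or control 4 (adjusted p 0.1073 to 0.3141) and was -0.50 (adjusted p = 0.2686) without the arrays of low correlation. Of its 5 probe sets, 4 had a negative change in that window, and the brightest alone passed. The late window of 403 to 1302 was 0.93 above 4-8 h (SE 0.24, limma adjusted p = 0.002856). In that comparison all 5 probe sets were higher, by 0.29 to 0.93, and 3 passed.

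Acaca, acetyl-CoA carboxylase, moved the other way. Its controls gave 264, 168.5, 197 and 260, and the 17 arrays of 4-8 h ran from 231 over 346 to 426, with 13 above every control. The change was 0.52 (SE 0.17, limma adjusted p = 0.02403), lost without control 2 or control 3 (adjusted p 0.09216 to 0.1091) and after quantile normalization or median centring (0.40 under each, adjusted p 0.09646 and 0.09784). With the off-scale array on its own scale it was 0.42 (adjusted p = 0.3436) and with array weights 0.49 (adjusted p = 0.05785). Late arrays gave 210 to 626, which was 0.11 from 4-8 h (SE 0.14, limma adjusted p = 0.5832). Fasn, the enzyme that follows it, did not pass at any time or window against the controls, whose signals were 2882, 495, 1035 and 2422. Its late arrays of 963 to 5461 were higher than those of 4-8 h, 725 to 2142, by 0.96 (SE 0.26, limma adjusted p = 0.003433). Without the low-correlation arrays this was 0.74 (adjusted p = 0.07448).

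Gpam, which starts glycerolipid synthesis, had control signals of 1110, 569, 774 and 995. At 2 h it gave 145 and 119 and at 4 h 156, 115 and 120, all under the lowest control, with log2 changes of -2.41 (SE 0.80, limma adjusted p = 0.03912) and -2.43 (SE 0.71, limma adjusted p = 0.01555). The 4 h call was lost without 4 h replicate 3 (-2.39, adjusted p = 0.05936), and the 2 h call without control 1, 3 or 4 or either 2 h array (adjusted p 0.0628 to 0.1997). The treated arrays fell on separate levels, 16 of 43 below a signal of 170 and the other 27 above 400. All 16 low ones were among the 31 arrays before 12 h, and 8 times held arrays of both levels. Over 4-8 h the change was -1.51 (SE 0.51, limma adjusted p = 0.02724), with 12 of 17 arrays under all controls and 1 above all. It was lost without control 1, 3 or 4 or 5 h replicate 2 (adjusted p 0.05637 to 0.0869) and was -0.93 (adjusted p = 0.2431) without the low-correlation arrays. The late window of 676 to 1309 was 1.62 above 4-8 h (SE 0.42, limma adjusted p = 0.002719), and 1.04 (adjusted p = 0.09155) without the low-correlation arrays.

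**Figure D2:**
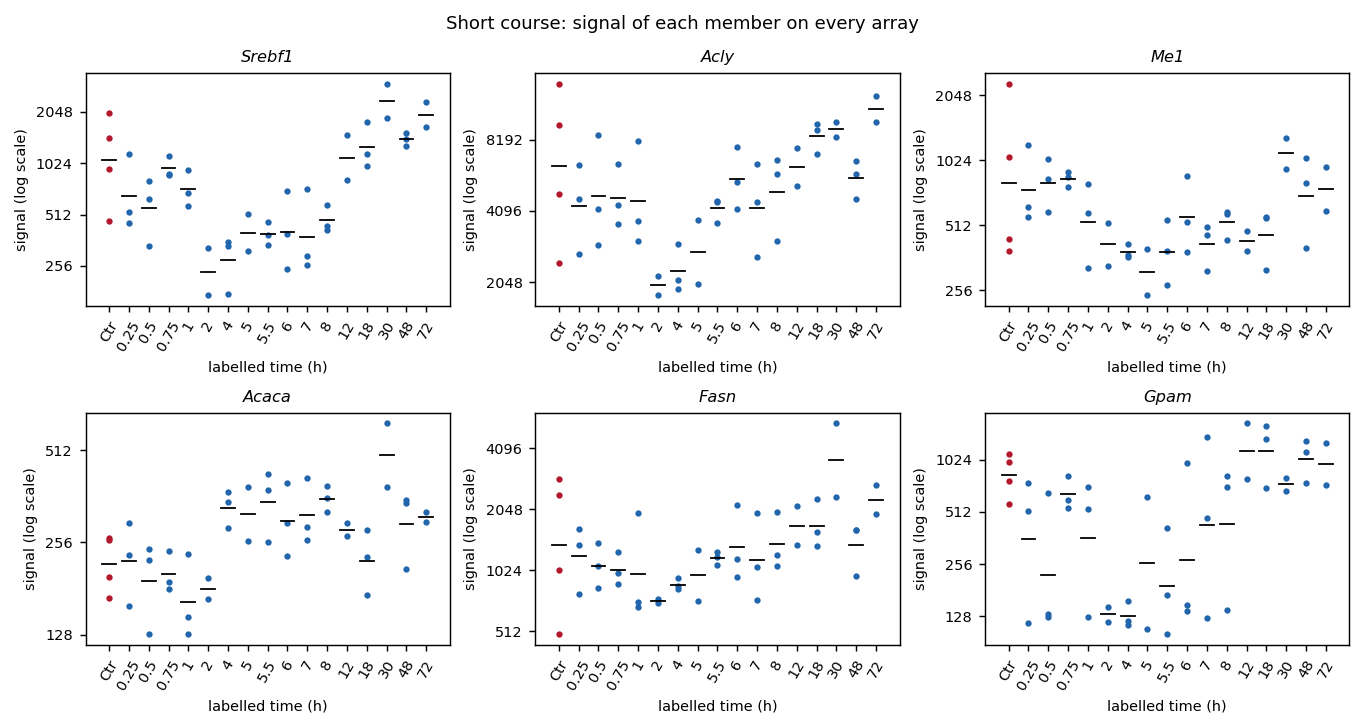
Signal of the 6 measured genes on each of the 47 short-course arrays, on log axes against the labelled time (h, Ctr for the controls in red), with bars at the geometric mean of a group. Srebf1 arrays of 2 and 4 h lie between 173 and 354, under all 4 controls.

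The late window of 30-72 h was higher than 4-8 h for 5 of the 6 genes, all but Acaca, where 37% of all genes differed and 15.2% were higher. Their median difference was 1.03 and that of all genes -0.06. At single times 9 of 96 tests of these genes passed, all lower, and 1 of the 9 (Srebf1 at 4 h) stayed past the threshold whichever array was left out. At those times, 2, 4, 5.5, 6 and 7 h, 6.11%, 8.07%, 4.33%, 4.1% and 4.02% of all genes were lower. In either direction 15.4%, 18.8%, 13.6%, 11.9% and 8.4% of all genes passed there. At 0.25, 0.5, 0.75, 1, 5 and 8 h 0 of the 6 passed, against 0.112%, 9.24%, 0.14%, 1.23%, 7.59% and 13.5% of all genes. At 12, 18, 30, 48 and 72 h 0 passed, against 0.223%, 0.223%, 0%, 0.195% and 0.0558% of all genes. Marker genes of other cell types also moved at 4-8 h. Of 3 neutrophil markers tested, 3 were higher at 4-8 h (S100a8 by 2.98, S100a9 by 2.03 and Lcn2 by 1.35), with a summed signal from 11876 to 21246 against 1174 to 25741 in the controls. Of 2 tested macrophage markers Cd14 was higher by 2.01 and Clec4f lower by 1.39, and the sum of 3 ran from 4733 to 15009 against 3486 to 3991. Epcam was lower by 0.46 as 1 of 3 biliary markers, and of 5 stellate and endothelial markers Pecam1 was higher by 0.57 and Kdr lower by 1.33. Of 9 hepatocyte markers Ass1 and Tat were higher by 0.76 and 0.79 and Apoa1 lower by 0.39. The hepatocyte sum of 82963 to 136219 lay within that of the controls, 67578 to 194570. The log2 ratio of 3' to 5' GAPDH probe signal was 0.14 ± 0.14 (SD, n = 4) in the controls and -0.02 ± 0.12 (n = 17) at 4-8 h. The part of these cell types and of RNA integrity in the changes was not tested.

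In the long course, Srebf1 and Fads1 were lower at 6-18 h, and by 72-168 h Acaca, Fasn and Thrsp had risen 3.52- to 4.08-fold on the log2(signal + 32) scale while Fads2 had fallen to 0.270 of control and Fads1 to 0.426. The F test over all times was passed by 8 of the 10 genes, all but Acly and Elovl6, and by 25.2% of all 8066 genes. At 6-18 h 2 of the 10 passed, both lower, where 10.1% of all genes passed and 5.15% were lower. At 24-48 h 0 passed (5.67% of all genes). At 72-168 h 5 of the 10 passed (11.6% of all genes), 3 higher (5.12% of all) and 2 lower (6.46% of all). Their median change was 0.31 and that of all genes -0.04.

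Srebf1 had control signals of 524, 158.5, 667 and 1685. At 10 h the 4 arrays gave 198, 184, 140 and 188, and the 16 arrays of 6-18 h ran from 109 over 221 to 460, with 3 under the lowest control. The change was -1.52 at 10 h (SE 0.40, limma adjusted p = 0.01401) and -1.18 over 6-18 h (SE 0.32, limma adjusted p = 0.01375). The 10 h call was lost without control 4 (adjusted p = 0.1261), and that of the window without control 3 or control 4 (adjusted p 0.06151 to 0.2348). Among arrays with dim spike-ins alone, which leaves out control 4, the window gave -0.62 (adjusted p = 0.2489), and among those with bright spike-ins -2.87 (adjusted p = 0.005974). That last comparison, like each one within the bright arrays against controls, has control 4 as its single control, which is assumed to vary like the other groups and was the brightest control for Srebf1. At 72-168 h the 12 arrays ran from 243 over 570 to 854, within the range of the controls, at -0.09 (SE 0.33, limma adjusted p = 0.9186), and at 0.34 (adjusted p = 0.6308) within the dim arrays and -1.83 (adjusted p = 0.02396) within the bright ones against control 4 alone. This was 1.09 above 6-18 h (SE 0.22, limma adjusted p = 2.70e-04), and 0.96 and 1.04 within the dim and bright spike-in arrays.

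Acaca had control signals of 208, 119, 299 and 494. Its arrays gave 498, 1506, 713 and 838 at 72 h, 1914, 444, 1832 and 1165 at 96 h, and 1573, 1490, 1203 and 1583 at 168 h. Of these 12 arrays 11 were above every control. The log2 change was 2.03 at 72-168 h (SE 0.34, limma adjusted p = 4.08e-05) and grew from 1.60 at 72 h over 2.09 at 96 h to 2.40 at 168 h, a growth that was not itself tested. The 2 Acaca probe sets gave 1.36 and 2.03 at 72-168 h, and both passed. The 72 h call was lost without control 2 or 72 h replicate 2 (adjusted p 0.07959 to 0.08096). A change of 1.29 at 10 h (SE 0.41, limma adjusted p = 0.04583), with all 4 arrays from 520 to 1059 above all controls, was lost on leaving out any 1 of 10 arrays.

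Fasn, which uses the malonyl-CoA that Acaca makes, had control signals of 130, 150, 715 and 1121. It gave 966, 1535, 670 and 535 at 72 h, 2198, 647, 1338 and 1526 at 96 h, and 2304, 3122, 2306 and 2774 at 168 h. The 168 h arrays all exceeded the highest control, and 8 of the 12 late arrays did so. The change was 1.87 at 72-168 h (SE 0.42, limma adjusted p = 0.00194) and 2.72 at 168 h (SE 0.52, limma adjusted p = 4.06e-04). Both stayed past the threshold whichever array was left out.

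Thrsp had control signals of 384, 717, 1884 and 4585. At 18 h it gave 332, 428, 586 and 457, followed by 3541, 4539, 3289 and 4012 at 72 h, 4507, 3186, 3479 and 5336 at 96 h, and 4626, 7141, 5335 and 6915 at 168 h. All arrays of 168 h were above the brightest control, but 5 of the 12 late arrays were. The change was 1.81 at 72-168 h (SE 0.36, limma adjusted p = 4.60e-04), 2.21 at 168 h (SE 0.44, limma adjusted p = 7.73e-04) and 1.90 from 6-18 h to 72-168 h (SE 0.24, limma adjusted p = 1.52e-07). The low at 18 h, -1.44 (SE 0.44, limma adjusted p = 0.04706), was lost when any 1 of 21 arrays was left out, and the 36 h value of 1.43 (adjusted p = 0.04729) when any 1 of 29 was.

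The late rises of Acaca, Fasn and Thrsp were also read within each group of spike-in brightness, and the difference between these groups was not tested. Within the dim spike-in arrays, 6 late arrays against 3 controls, they were 2.26, 2.36 and 2.27 (adjusted p 9.24e-04, 0.004995 and 2.98e-04). Within the bright ones, 6 late arrays against control 4 alone, they were 1.23, 0.19 and 0.07 (adjusted p 0.6716, 0.9654 and 0.9833). With the spike-in group as a block they were 1.97, 1.80 and 1.69 (adjusted p 6.83e-05, 0.003077 and 5.76e-04). The late difference from 6-18 h does not use the controls. Within the dim arrays it was 1.00 for Acaca, 1.59 for Fasn and 1.70 for Thrsp (adjusted p 0.03205, 0.007707 and 2.69e-04). Within the bright arrays it was 1.35 for Acaca, 1.66 for Fasn and 2.15 for Thrsp, of which Thrsp passed (adjusted p 0.2022, 0.08542 and 0.003237). The ratio of 3' to 5' GAPDH probe signal, a measure of RNA integrity, also moved, from a log2 of 0.10 ± 0.20 (SD, n = 4) in the controls to 0.36 ± 0.05 (n = 12) at 72-168 h, and its part was not tested.

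Elovl6, which lengthens the product of Fasn, was dim, with controls at 51.7, 13.5, 85.4 and 67.8 and late arrays from 24.7 over 109 to 316. Its late change of 0.68 (SE 0.34, 95% interval 0.00 to 1.36, limma adjusted p = 0.2124) did not pass. Acly had control signals of 301, 253, 1065 and 1611 and late signals from 536 over 1273 to 2199, a change of 0.83 that did not pass (SE 0.37, 95% interval 0.08 to 1.58, limma adjusted p = 0.1614). Against 6-18 h it was higher by 0.72 (SE 0.25, limma adjusted p = 0.03006). That call was lost without 6 h replicate 1, 18 h replicate 1, 72 h replicate 1 or 2, 96 h replicate 1 or 168 h replicate 4 (adjusted p 0.05397 to 0.07076). Me1, with controls from 133 to 257, was not past the threshold at any time or window, and its late change was -0.25 (95% interval -0.72 to 0.21). Gpam had controls at 90.1, 69.4, 130 and 160 and gave 81.9, 52.2, 54.6 and 54.8 at 10 h, a change of -0.60 (SE 0.16, limma adjusted p = 0.01649). This was lost without control 3 or 4 or 10 h replicate 2 or 3 (adjusted p 0.05163 to 0.1116), and the late change was -0.06 (95% interval -0.33 to 0.21).

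**Figure D3:**
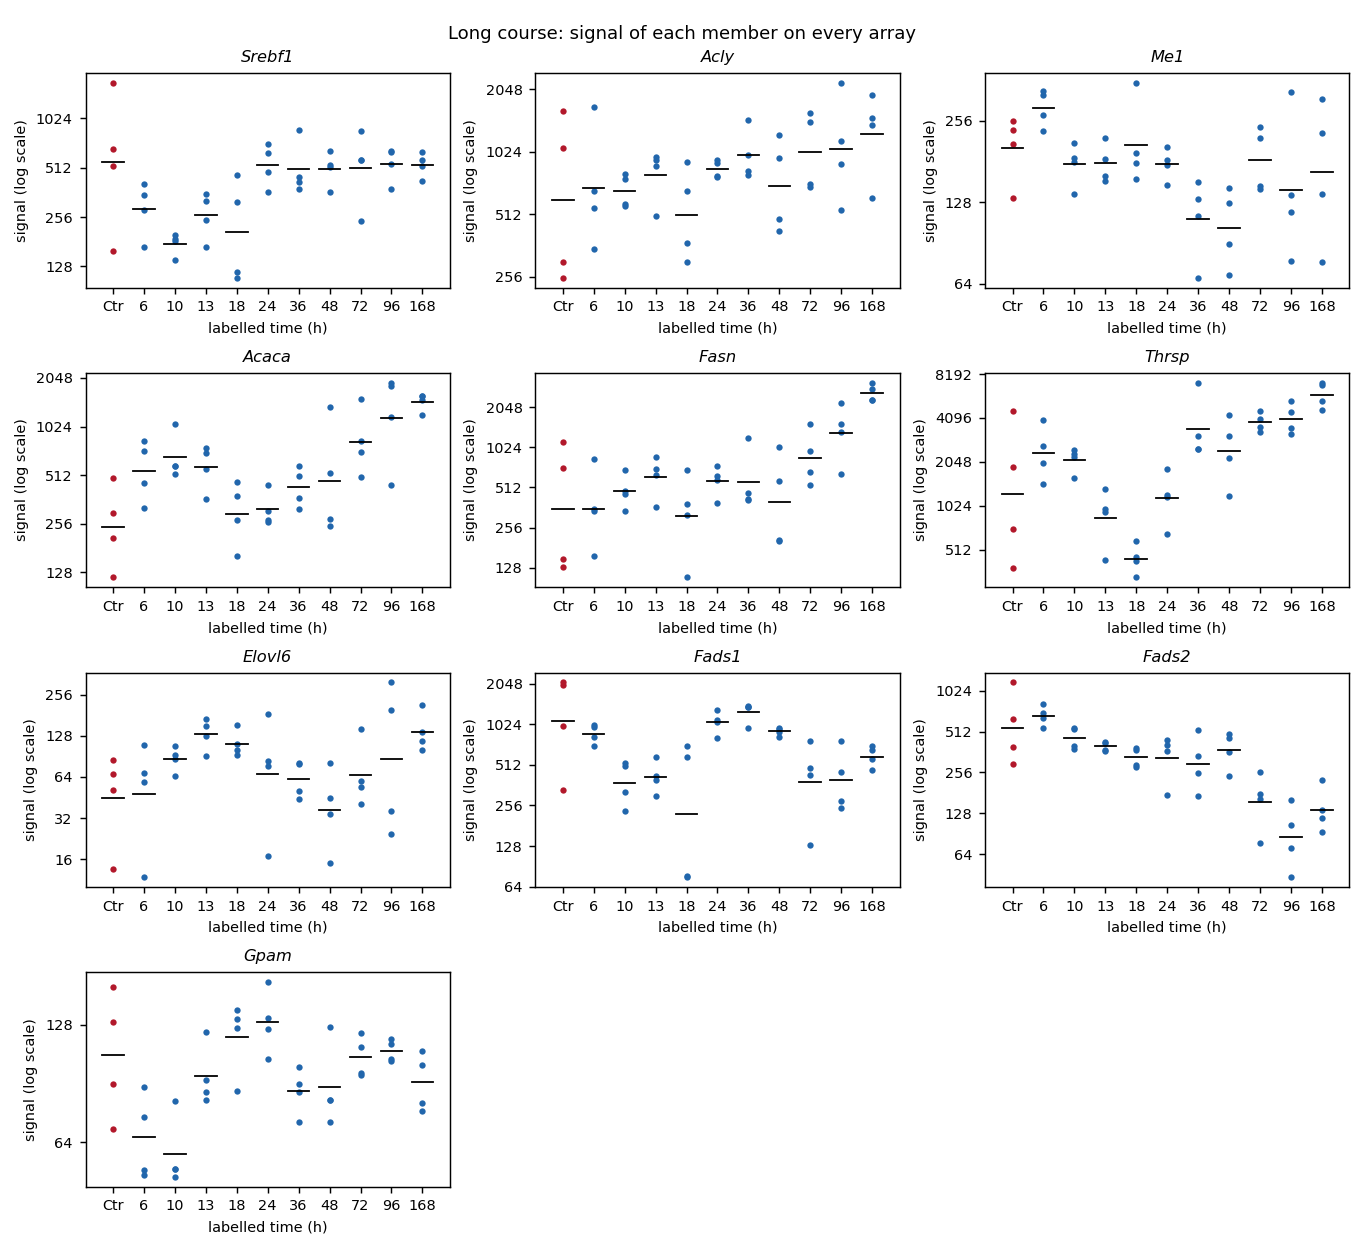
Signal of the 10 genes on each of the 44 long-course arrays, on log axes against the labelled time (h, Ctr for the controls in red), with bars at the geometric mean of a group. Fasn at 168 h lies between 2304 and 3122, and Fads2 from 72 to 168 h lies between 43.3 and 259, under all 4 controls.

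Both desaturases were lower at 72-168 h. Fads2 had control signals of 396, 295, 634 and 1184. It gave 259, 178, 162 and 77.6 at 72 h, 105, 160, 71.0 and 43.3 at 96 h, and 136, 225, 119 and 93.8 at 168 h. All 12 late arrays lay below every control and below every array of 6-18 h, which ran from 282 to 813. The change was -1.89 at 72-168 h (SE 0.26, limma adjusted p = 1.88e-06) and -1.62 from 6-18 h (SE 0.17, limma adjusted p = 5.95e-09). Against the controls it was -1.30 within the dim spike-in arrays (adjusted p = 0.002125). Within the bright ones it was -3.37 (adjusted p = 0.007885) against control 4 alone, the brightest of the controls at 1184. The calls at 72, 96 and 168 h (-1.61, -2.28 and -1.78) stayed past the threshold whichever array was left out, and the last was -1.43 (adjusted p = 0.06223) among the dim spike-in arrays.

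Fads1 had control signals of 998, 334, 2097 and 2014 and passed as lower at 6-18 h and at 72-168 h. Whether its level at 24-48 h differed from those 2 windows was not tested. At 18 h it gave 75.3, 76.8, 703 and 589, and the 16 arrays of 6-18 h ran from 75.3 over 517 to 1006. At 24-48 h the 12 arrays of 811 to 1407 were within the range of the controls, and at 72-168 h they ran from 130 over 478 to 772. The change was -1.30 at 6-18 h (SE 0.38, limma adjusted p = 0.02151), -0.04 at 24-48 h (SE 0.39, limma adjusted p = 0.9774) and -1.23 at 72-168 h (SE 0.39, limma adjusted p = 0.03179). The first call was lost without control 1, 3 or 4 (adjusted p 0.05318 to 0.1582). The late one was lost without control 1, 3 or 4, 72 h replicate 4 or 96 h replicate 4 (adjusted p 0.05081 to 0.2008). Within the dim spike-in arrays they were -1.04 and -0.53 (adjusted p 0.1385 and 0.5744), and neither passed. Within the bright ones they were -2.09 and -2.75 (adjusted p 0.03171 and 0.003625) against control 4 alone, whose signal of 2014 lies near the top of the controls. The fall of -2.07 at 18 h (SE 0.48, limma adjusted p = 0.006556) was lost without 18 h replicate 1 or 2 (adjusted p 0.06048 to 0.06728).

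**Figure D4:**
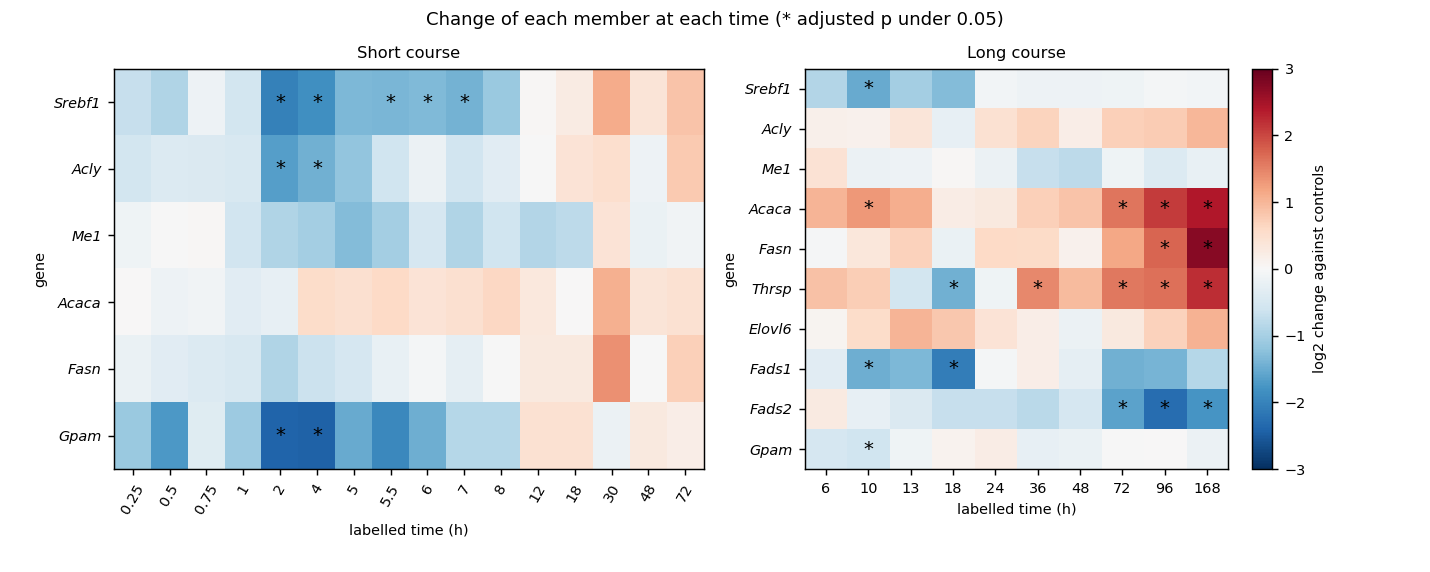
Log2 change of each gene (rows) against the controls of its course at each labelled time in h (columns), from blue (lower) to red (higher), with * for an adjusted p under 0.05. The 9 marked cells of the short course are all lower, and the 18 of the long course are 10 higher and 8 lower.

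Over the single times of the long course 18 of 100 tests of these genes passed, 10 higher and 8 lower, and 7 of them stayed whichever array was left out. At 10, 18, 36, 72, 96 and 168 h 8.21%, 5.34%, 5.6%, 6.31%, 8.79% and 7.96% of all genes passed. At 6, 13, 24 and 48 h 0 of the 10 passed, against 4.96%, 5.33%, 1.6% and 4.35% of all genes. Between 6-18 h and 72-168 h 6 of the 10 genes differed, 5 higher (Srebf1, Acly, Acaca, Fasn and Thrsp) and 1 lower (Fads2), where 22% of all genes differed, 9.68% higher and 12.3% lower. Markers of macrophages moved in the same course. Of 4 tested, Cd68 and Clec4f were lower at 72-168 h by 0.81 and 1.38. The summed signal of the 4 ran from 653 to 1235 against 1352 to 1798 in the controls. Already at 6-18 h, and at 24-48 h, 2 of the 4 were lower, with sums from 661 to 1314 and from 762 to 1450. Epcam, the 1 tested biliary marker, was lower at 72-168 h by 0.67, Col3a1 was lower by 0.87 as 1 of 5 stellate and endothelial markers, and Ass1 and Tat were higher by 1.40 and 0.91 among 9 hepatocyte markers. Earlier, Epcam was lower at 6-18 h by 0.36, and 1 of the 5 stellate and endothelial markers was lower at 24-48 h. Of the 9 hepatocyte markers 2 were higher at 6-18 h and 2 at 24-48 h. Thrsp, Fasn and Acly are also high in fat cells. Of 5 tested adipocyte genes 0 passed at 72-168 h, while at 6-18 h Cidea was higher by 0.86 and Pck1, which hepatocytes also express, lower by 0.71. From 6-18 h to 72-168 h Pck1 was higher by 0.97, and Cidea and Lpl were lower by 0.52 and 0.61. The sum of 6 adipocyte genes ran from 3832 to 6814 at 72-168 h, from 1050 to 5151 at 6-18 h and from 3775 to 5228 in the controls, Adipoq was on neither array, and Plin1 and Lep had long-course signals of at most 78.0 and 93.4. All 3 tested erythroid markers were higher at 72-168 h than at 6-18 h (Hbb by 1.98), with a sum from 386 to 5439 against 338 to 2379. The part of any of these cell types in the changes was not tested.

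**Figure D5:**
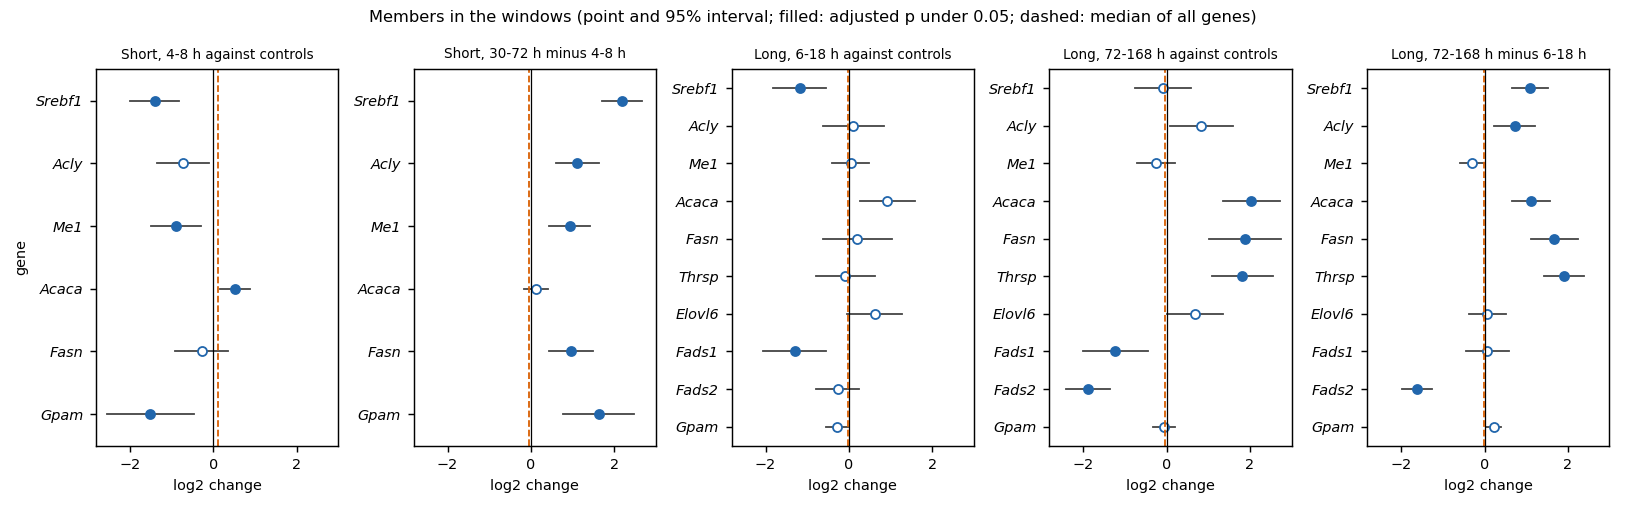
Log2 change with its 95% interval for each gene in 5 comparisons, filled where the adjusted p is under 0.05, with the median of all genes as a dashed line. The late windows of both courses lie above the earlier ones for Srebf1, Acly and Fasn, and Fads2 falls by 1.62 in the long course.

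Levels of Srebf1 and of the enzymes are set side by side, with no test between genes. Srebf1 in the long course stood at -0.09 at 72-168 h, where Acaca, Fasn and Thrsp stood at 2.03, 1.87 and 1.81. In the short course Srebf1 stood at -1.40 at 4-8 h, where Fasn stood at -0.28 and Acaca at 0.52. Over the 17 group means of the short course the correlation of log2 signals with Srebf1 was 0.88 for Acly, 0.88 for Gpam, 0.83 for Fasn, 0.68 for Me1 and 0.16 for Acaca. Over the 11 group means of the long course it was 0.89 between Fasn and Acly, 0.86 between Fasn and Acaca and -0.83 between Fasn and Fads2. Over the 44 arrays after removing group means, these pairs gave 0.91, 0.79 and 0.38, so Fasn and Fads2 differed in sign between the 2 readings. Fads1 and Fads2 correlated at 0.35 over group means and at 0.64 over the 44 arrays after removing group means. These correlations are descriptions over points that share arrays and scaling. The genes most like the mean of these genes over the group means were Rnf130 and Prkd3 (r = 0.91), Kank2 and Tmem218 (0.90) and Akr7a2 (0.89) among 3576 genes of the short course. For the long course this gave Pgd (0.91), which makes NADPH in the pentose phosphate pathway, Tm7sf3 (0.90), Slc22a8, Bmp1 and Selenow (0.87 each) among 8056 genes. The long-course mean joins genes that ran against one another, such as Fasn and Fads2 (-0.83) or Elovl6 and Fads1 (-0.66). A gene close to that mean need not follow each of them.

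Genes around the pathway moved as follows. In the short course at 4-8 h 0 of 9 regulators were higher and 2 lower, Nr0b2 (SHP) by 1.47 and Nr1h3, the liver X receptor that drives Srebf1, by 0.66 (limma adjusted p 0.0112 and 0.03732). Of 8 genes of substrate and NADPH supply 3 were lower, Idh1 by 1.68, Tkt by 0.67 and Mpc1 by 0.48, and 0 higher. Of 9 other synthesis genes 2 were lower, the elongase Elovl5 by 1.34 and the acyl-CoA ligase Acsl1 by 1.31, and 0 higher. The stearoyl-CoA desaturase Scd gave -0.53 (limma adjusted p = 0.537) there and was 1.57 higher at 30-72 h than at 4-8 h (limma adjusted p = 0.009839). Of 4 genes of triglyceride assembly and storage the fatty acid transporter Cd36 was higher by 0.71, and the lipid droplet protein Plin2 and the fatty acid binding protein Fabp1 were lower by 1.17 and 0.51. The opposing pathway of fatty acid breakdown had 7 of 11 genes lower and 0 higher, among them Pdk4, which holds back pyruvate oxidation, by 2.73 and the peroxisomal enzyme Ehhadh by 1.53. At 4-8 h 10.8% of all genes were lower and 16.7% higher.

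At 72-168 h of the long course, where 5.12% of all genes were higher and 6.46% lower, 3 of 16 regulators were higher, Nr1i3 (CAR) by 1.31, the Thrsp partner Mid1ip1 by 0.80 and Nr1h3 by 0.38, and Scap, the escort of SREBP, was lower by 0.68. Of 11 genes of substrate and NADPH supply 2 were higher, Pklr, the liver pyruvate kinase, by 1.19 and Taldo1 by 0.52, and Idh1 was lower by 0.56. Of 8 genes of triglyceride assembly 3 were higher and 0 lower, the phosphatidate phosphatase Lpin1 by 3.02, Dgat2 by 0.80 and Agpat2 by 0.76. Of 12 other synthesis genes Hsd17b12, which acts in chain elongation, was higher by 1.54 and Acsl5 lower by 0.56. Scd gave 1.27 (limma adjusted p = 0.2669), Insig1 0.08 and Mlxipl (ChREBP), the glucose-responsive regulator, 0.17, and none of these passed. Of 11 breakdown genes Cpt2 was higher by 1.00 and Ehhadh and Pdk4 were lower by 1.84 and 1.42. Acacb, the mitochondrial carboxylase isoform, was under the signal filter on both arrays.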

How the data were processed

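Rat liver RNA was measured on Affymetrix arrays, and the authors deposited 1 intensity per probe set and array on a linear scale. How probes were combined into these values is not stated in the labels, and the software is not given in the sources used here. As deposited, the trimmed mean signal (2% taken off at each end) was 801 on short-course arrays, except 6 h replicate 3 at 150, which was rescaled to 801, and 150 on long-course arrays. Titles decided the time of 2 long-course arrays whose descriptions differ (96 h replicate 1, described as 72 hours, and 48 h replicate 1, worded like the short course). No array repeats another, since 0 pairs held identical values.

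Signals were taken as log2(signal + 32). Control probe sets and those under the 30th percentile of mean log2(signal + 32) were left out, which kept 6118 and 11106 probe sets, with 15 of 17 and 16 of 16 of the described genes. The 2 left out were Gpam probe sets of the short course. Gene symbols came from GEO's platform annotation, and a gene was named from probe sets with 1 symbol. Group means were estimated jointly for all arrays of a course (limma 3.58.1, R 4.3.3), with a variance trend, windows as unweighted means of their times, and Benjamini-Hochberg adjustment over the probe sets tested. Shares of all genes count each gene by its brightest probe set. The code was tested on simulated data. Precision is limited by how many arrays a group has.

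The genes, gene lists, windows and the naming rule were chosen with earlier results of these data known. The rule named all 10 genes, up to 2 rises and 2 falls per pathway list and window, Scd, Mlxipl, Nr1h3, Insig1 and Acacb, and 5 most similar genes a course. Other constants, filters, scalings, weights, blocks, probe sets and left-out arrays were tried. Leaving out low-correlation arrays and keeping the off-scale array were added after the data were seen.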

Additional observations from a re-analysis of the deposited data

Results flagged for a closer look

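The late window differed from the main-response window of the same course for 11 results, 5 of the 6 genes of the short course and 6 of the 10 of the long course. In the short course 30-72 h was higher than 4-8 h by 2.19 for Srebf1, 0.96 for Fasn, 1.10 for Acly, 0.93 for Me1 and 1.62 for Gpam on the log2 scale. In the long course 72-168 h was higher than 6-18 h by 1.09 for Srebf1, 1.67 for Fasn, 0.72 for Acly, 1.11 for Acaca and 1.90 for Thrsp, and lower for Fads2, at -1.62. They were listed because they passed limma's test of the difference, which 37% of all genes passed in the short course and 22% in the long. Without the low-correlation arrays Fasn and Gpam of the short course were lost (limma adjusted p 0.07448 and 0.09155). Acly of the long course was lost on leaving out any 1 of 6 arrays and within either spike-in group alone. Fasn and Acaca of the long course were lost within the bright spike-in arrays.

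Of 116 sets of 4 arrays (a gene in a long-course or control group), 5 held 1 array that stood apart from the other arrays. This is no more than the about 1 in 20 that chance gives. Fasn gave 1205 in 36 h replicate 4 against 415 to 467 in the others. Acly gave 504.5 in 13 h replicate 4 against 876 to 967. Acaca gave 1059 in 10 h replicate 3 against 520 to 585. Fads1 gave 968.6 in 36 h replicate 3 against 1373 to 1407. Gpam gave 81.88 in 10 h replicate 1 against 52.2 to 54.8. Whether any of these has a cause beyond chance was not tested.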

How the results depend on the processing

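No called log2 change of these genes reversed under the settings run. Of the values of single genes beside the main ones, 1381 kept their direction and side of the threshold, 75 were lost and 12 were gained under other settings. With 1 array left out 4476, 168 and 23 did so. These counts pool called values with uncalled ones, and only a called value could be lost. Of the 9 single-time calls of the short course 1, and of the 18 of the long course 7, stayed whichever array was left out. In the short course the count at 1-2 h, 1 in the main analysis, was 2 with array weights, 3 with the mean over probe sets, and 0 with the replicate block, without the low-correlation arrays or with the off-scale array on its own scale. The count at 4-8 h, 4 in the main analysis, was 2 with the replicate block, with only the groups compared, and without the low-correlation arrays. The late count of 5 was 3 without the low-correlation arrays, and the F test count of 4 was 2 with the off-scale array on its own scale. In the long course the count at 6-18 h, 2, was 1 among dim spike-in arrays, where Srebf1 and Fads1 were both lost and Acaca passed instead (1.26, adjusted p = 0.03086). The counts at 72-168 h (5) and from 6-18 h to 72-168 h (6) were each 3 among bright ones, the first being Fads1, Fads2 and Srebf1, which was not called in the main analysis, all against 1 control.

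Leaving out each array in turn gave 0 to 0 genes at 0.25-0.75, 12-18 and 30-72 h of the short course, 0 to 3 at 1-2 h, 2 to 4 at 4-8 h, 5 to 5 for the late difference and 4 to 6 in the F test. For the long course it gave 0 to 3 at 6-18 h, 0 to 1 at 24-48 h, 4 to 5 at 72-168 h, 5 to 7 for the late difference and 7 to 8 in the F test. The F test was not run with only the groups compared or among bright spike-in arrays alone. With only the groups compared, the calls of Srebf1 at 1-2 h (adjusted p = 0.07952), Me1 and Gpam at 4-8 h (0.05976 and 0.064) and Fads1 at 6-18 and 72-168 h (0.06147 and 0.0851) were lost. Nothing in the labels pairs arrays by replicate number. Same-numbered arrays of different groups correlated at a median of -0.01 (short) and 0.06 (long), against 0.00 and -0.02 for other numbers, and 7 of 47 and 18 of 44 arrays correlated best with their own number. In the long course the number is tied to the spike-in split, since all 11 arrays of replicate 4 are among the 15 bright ones. With the replicate block the counts of the long course were 2, 0, 5 and 7 in the order of its windows and late difference. Dim signals limit Elovl6 and Gpam in the long course, and the 4 unequal controls limit all comparisons against them.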
